A study of Mus musculus with 63 samples.

Results

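The endoplasmic reticulum stress genes described here are 10 genes of the unfolded protein response, taken by symbol from the gene count table: the chaperones Hspa5, Hsp90b1 and Calr, the folding factors Hyou1, Pdia4, Creld2 and Sdf2l1, and the transcription factors Xbp1, Atf4 and Ddit3. The symbols matched 11 of the 55401 rows of the table, because Ddit3 named 2 rows, and all 11 rows were among the 19974 genes tested. RNA came from the dorsal hippocampus of adolescent DBA/2J mice (32 libraries) and C57BL/6J mice (31 libraries), both inbred strains, with 31 libraries from males and 32 from females. Mice received an acute injection of ethanol at 1.5 g/kg (EtOH, 32 libraries) or of saline (31 libraries), and were fear conditioned (FC, 31 libraries) or left without conditioning (noFC, 32 libraries). Crossing strain, sex, conditioning and drug made 16 groups of 4 libraries, except that the saline group of conditioned C57BL/6J males held 3. The labels name no transgene or engineered allele, and libraries were taken as separate animals. The labels do not say so, and p-values measure the spread between libraries.

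Library titles carried 1 of 16 running numbers and a letter from A to D, whose meaning the labels do not give. Each number belonged to libraries of 1 strain and 1 sex. The lower 8 numbers are called the first round of titles here and the upper 8 the second. Within a group of 4, libraries 1 and 2 in order of title number belong to the first round and 3 and 4 to the second. Saline libraries had the letters A and B in the first round and C and D in the second, and ethanol libraries the reverse. In both rounds the libraries with letters A and C were conditioned and those with B and D were not. Conditioning and a difference between these letters therefore cannot be told apart. Total counts ran from 21027659 to 61631742 per library. Neuronal markers of the hippocampus were present in every library: 8 dentate gyrus markers summed to 313.1 to 688 CPM (read counts divided by the library's TMM-scaled total and set to a common depth) in DBA/2J and to 444 to 748 CPM in C57BL/6J, and 5 CA1 markers summed to 377 to 622 CPM in DBA/2J and to 378 to 631 CPM in C57BL/6J. Markers of the choroid plexus, a secretory epithelium next to the hippocampus, summed to between 34.8 and 11130 CPM in DBA/2J (median 175) and between 45.5 and 12470 CPM in C57BL/6J (median 134), and none of the 10 was at 0 in any library. Among DBA/2J libraries, 3 saline ones of the second round stood apart by high heat shock transcripts, and results that rest on them are given with and without them.

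Proteins that enter the secretory pathway fold in the lumen of the endoplasmic reticulum, helped by chaperones and by enzymes that form disulfide bonds. When unfolded proteins build up, the sensors Ire1 (Ern1), Perk (Eif2ak3) and Atf6 start the unfolded protein response. Ire1 splices the Xbp1 message, Atf6 is cut to release a transcription factor, and both raise lumenal chaperones, while Perk phosphorylates the initiation factor eIF2 and so favours translation of Atf4. In neurons the same machinery folds receptors, channels and secreted peptides. In bulk tissue, fewer cells of a type and less RNA per cell cannot be told apart.

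Per kilobase of exon, Calr, a calcium-binding lectin chaperone, had the highest mean level over the 63 libraries, at 113 CPM per kb. Hsp90b1 (Grp94), the lumenal Hsp90, followed at 75.5 CPM per kb and Hspa5 (BiP), the lumenal Hsp70 that also holds the sensors inactive, at 52.9 CPM per kb. Atf4 stood at 41.4 CPM per kb, above the other transcription factors Xbp1 at 19.9 and Ddit3 (Chop) at 8.05 CPM per kb. The folding factors were lower than the chaperones: Pdia4, a protein disulfide isomerase, had 17.3 CPM per kb, Hyou1, the nucleotide exchange factor of BiP, 12.96 CPM per kb, Creld2, a lumenal protein with disulfide isomerase activity, 9.93 CPM per kb, and Sdf2l1, a cofactor of the BiP cycle, 7.85 CPM per kb.

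Chaperone genes of the unfolded protein response are known to share the endoplasmic reticulum stress element (ERSE), made of CCAAT, 9 bases of any kind and CCACG, which binds NF-Y and Atf6 or Xbp1. The element was searched for on both strands from 250 bases before to 50 bases after the transcription start given by RefSeq on GRCm38.p6, which had an entry for 9 of the 10 genes and none for Hyou1. It stood in 4 of the 9 windows, those of Hspa5, Hsp90b1, Calr and Creld2, against 35 of all 27025 promoters of that length (0.13%). Pdia4, Sdf2l1, Xbp1, Ddit3 and Atf4 held no exact match. Only exact matches were counted, so sites that differ from the element by 1 base were missed, and absence cannot be concluded. Of the 4 genes with the element, Hspa5, Calr and Creld2 were higher in DBA/2J and Hsp90b1 did not pass the test, as given below. Of those with no exact match, Sdf2l1, Xbp1 and Ddit3 were higher, Pdia4 did not pass and Atf4 was lower. Whether the element bears on the strain differences was not tested. The 250 bases before the start of these 4 genes with the element are printed, with the element in capitals. Those of Atf4 are printed because it held no exact match and was the gene lower in DBA/2J.
Hspa5: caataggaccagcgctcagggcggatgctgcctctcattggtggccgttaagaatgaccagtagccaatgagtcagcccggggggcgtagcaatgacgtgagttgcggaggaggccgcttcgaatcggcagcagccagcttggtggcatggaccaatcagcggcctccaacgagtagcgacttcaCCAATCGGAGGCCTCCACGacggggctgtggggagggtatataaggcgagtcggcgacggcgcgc
Hsp90b1: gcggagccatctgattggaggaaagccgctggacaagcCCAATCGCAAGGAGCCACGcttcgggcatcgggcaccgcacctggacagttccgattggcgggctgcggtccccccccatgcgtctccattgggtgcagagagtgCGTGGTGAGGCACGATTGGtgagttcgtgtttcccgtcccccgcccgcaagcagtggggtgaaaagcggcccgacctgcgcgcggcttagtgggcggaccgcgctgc
Calr: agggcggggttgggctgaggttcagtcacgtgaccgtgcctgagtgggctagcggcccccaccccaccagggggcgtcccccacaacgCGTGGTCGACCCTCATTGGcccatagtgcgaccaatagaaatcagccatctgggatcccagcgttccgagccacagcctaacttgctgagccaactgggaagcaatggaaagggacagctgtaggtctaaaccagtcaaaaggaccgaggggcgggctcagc
Creld2: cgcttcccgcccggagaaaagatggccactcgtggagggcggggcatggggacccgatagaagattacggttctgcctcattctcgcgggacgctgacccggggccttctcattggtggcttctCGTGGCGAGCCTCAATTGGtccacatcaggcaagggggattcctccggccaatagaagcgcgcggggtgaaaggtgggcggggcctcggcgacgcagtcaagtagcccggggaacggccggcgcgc
Atf4: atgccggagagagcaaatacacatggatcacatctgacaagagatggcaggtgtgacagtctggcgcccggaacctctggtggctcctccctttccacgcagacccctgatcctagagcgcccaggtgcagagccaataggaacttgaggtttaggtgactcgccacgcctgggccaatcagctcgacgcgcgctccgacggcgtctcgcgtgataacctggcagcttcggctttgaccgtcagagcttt
These windows lie at chr2:34771840-34772089 (plus strand) for Hspa5, chr10:86705445-86705694 (minus strand) for Hsp90b1, chr8:84846932-84847181 (minus strand) for Calr, chr15:88819396-88819645 (plus strand) for Creld2 and chr15:80254934-80255183 (plus strand) for Atf4. Counted back from the start, the Hspa5 element covered bases -65 to -47 on the strand of the gene. Hsp90b1 had 2 elements, at -212 to -194 on its own strand and at -107 to -89 on the opposite strand. The elements of Calr (-162 to -144) and Creld2 (-126 to -108) were on the opposite strand. The related motifs ERSE-II (ATTGG, 1 base of any kind and CCACG, 0.037% of promoters), UPRE (TGACGTGG, 0.607%) and CARE, the Atf4 site (TGATGNAAT, 0.969%), had no match in the 9 windows, and the CCAAT box, which is part of the ERSE, had a match in 37.9% of all promoters.

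DBA/2J against C57BL/6J asks which of these genes differed with strain, whatever the drug and conditioning. Of the 10 genes, 7 were higher in DBA/2J, 1 was lower and 2 did not pass the test (adjusted p under 0.05, edgeR quasi-likelihood test with Benjamini-Hochberg adjustment over all genes), where 49.9% of all genes tested were called. The differences were small, and the median log2 difference of the 10 genes was 0.20, beside 0.01 over all genes. Over all genes, 25.4% were called higher in DBA/2J and 24.4% lower.

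Among the chaperones, Hspa5 (ENSMUSG00000026864, chromosome 2, 34771970 to 34777547, GRCm38) had a lowest, median and highest value of 186, 239 and 413 CPM in DBA/2J libraries, against 145, 191 and 308 CPM in C57BL/6J libraries. All but 1 of the 32 DBA/2J libraries lay above the C57BL/6J median, and only 3 above its highest library, so the strains overlapped. Its mean was 249 ± 51.2 CPM in DBA/2J and 197 ± 31.8 CPM in C57BL/6J (SD, n = 32 and 31), a log2 difference of 0.33 (SE 0.06, adjusted p = 3.7e-06). Calr had 286, 350 and 430 CPM in DBA/2J and 260, 303 and 382 CPM in C57BL/6J, with 28 of 32 DBA/2J libraries above the C57BL/6J median, and differed by 0.19 on the log2 scale (SE 0.03, adjusted p = 2.3e-06). Hsp90b1, whose promoter held the pair of elements, had 237, 312.3 and 408 CPM in DBA/2J and 237, 292 and 443 CPM in C57BL/6J. These ranges lay on top of each other, and its log2 difference of 0.08 (95% interval -0.00 to 0.17, adjusted p = 0.11) was not called.

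The folding factors were split in the same way. Hyou1 had 79.3, 101 and 121 CPM in DBA/2J, against 78.2, 87.8 and 94.9 CPM in C57BL/6J. It gave the clearest separation of the folding factors, with 23 of 32 DBA/2J libraries above the highest C57BL/6J library, and differed by 0.20 (SE 0.02, adjusted p = 3.9e-10). Creld2 had 11.4, 14.6 and 20.8 CPM in DBA/2J and 10.3, 12.1 and 15.7 CPM in C57BL/6J, a log2 difference of 0.27 (SE 0.04, adjusted p = 1.8e-08), with 31 of 32 DBA/2J libraries above the C57BL/6J median. Sdf2l1, the lowest of the set, had 6.39, 9.22 and 17.4 CPM in DBA/2J and 5.47, 7.58 and 11.4 CPM in C57BL/6J, a log2 difference of 0.32 (SE 0.07, adjusted p = 3.4e-05). Pdia4 had 33.0, 41.1 and 81.1 CPM in DBA/2J and 32.4, 37.4 and 65.9 CPM in C57BL/6J, and its log2 difference of 0.14 (95% interval 0.01 to 0.28, adjusted p = 0.071) was not called.

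The transcription factors went in opposite directions. Xbp1 (ENSMUSG00000020484, chromosome 11, 5520659 to 5525893), the target of Ire1, had 57.8, 69.9 and 94.3 CPM in DBA/2J, against 49.6, 58.8 and 70.2 CPM in C57BL/6J, with 16 of 32 DBA/2J libraries above the highest C57BL/6J library and a log2 difference of 0.25 (SE 0.03, adjusted p = 2.9e-09). Ddit3 (ENSMUSG00000025408, chromosome 10, 127290774 to 127296288), which encodes Chop and is itself a target of Atf4, had 11.6, 14.4 and 18.7 CPM in DBA/2J and 11.2, 12.9 and 15.2 CPM in C57BL/6J, a log2 difference of 0.19 (SE 0.04, adjusted p = 2.3e-05). Atf4 (ENSMUSG00000042406, chromosome 15, 80255184 to 80257541) had 80.4, 88.9 and 102 CPM in DBA/2J, against 97.7, 104 and 116 CPM in C57BL/6J. Its strains were nearly apart: 30 of the 32 DBA/2J libraries lay below the lowest C57BL/6J library. Atf4 averaged 89.9 ± 5.26 CPM in DBA/2J and 105 ± 4.86 CPM in C57BL/6J (SD, n = 32 and 31), and fell by 0.23 on the log2 scale (SE 0.02, adjusted p = 7.4e-16). Whether DBA/2J sequence variants changed how reads were assigned to GRCm38 was not tested.

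**Figure D1:**
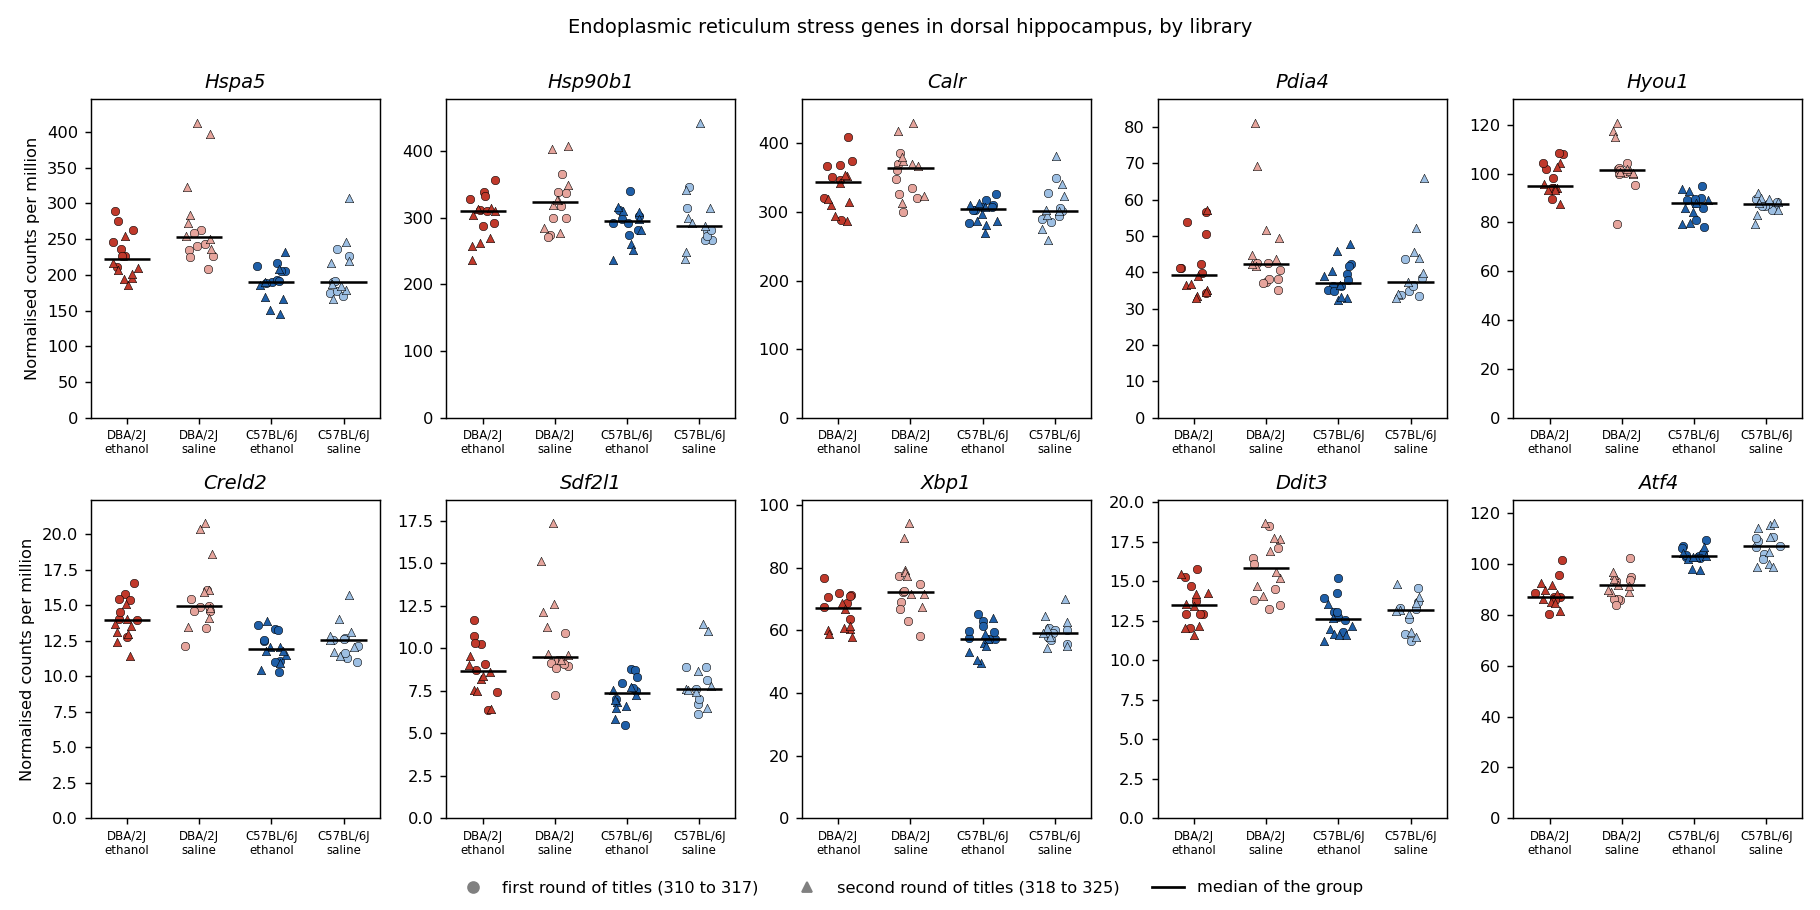
Normalised counts (CPM) of each gene in every library, by strain and drug, with circles for the first round of titles, triangles for the second and a bar at each group's median. Atf4 is lower in DBA/2J (80.4 to 102 CPM, against 97.7 to 116 CPM in C57BL/6J), while Hyou1 and Xbp1 are higher.

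The strain difference was seen in all or most pairs of groups with the same sex, conditioning and drug. The DBA/2J mean was the higher one in 8 of 8 pairs for Hyou1, Xbp1 and Ddit3, in 7 of 8 for the other 6 genes that had a positive difference, and in 0 of 8 for Atf4. In saline libraries alone 8 genes were called (35.4% of all genes were), and Ddit3 differed by 0.28 (adjusted p = 0.00012). In ethanol libraries alone 7 were called (38.6% of all genes), and Ddit3, at 0.09 (adjusted p = 0.14), was not. Within the first round 9 genes were called (35% of all genes) and within the second 8 (35.5%), and Atf4 was lower in DBA/2J by similar amounts, -0.24 and -0.22. Strain accounted for 70.5% of the variance of Atf4 across libraries, for 51.6% of that of Hyou1 and 44.2% of that of Xbp1, but for 6.3% of that of Pdia4 and 5.81% of that of Hsp90b1.

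**Figure D2:**
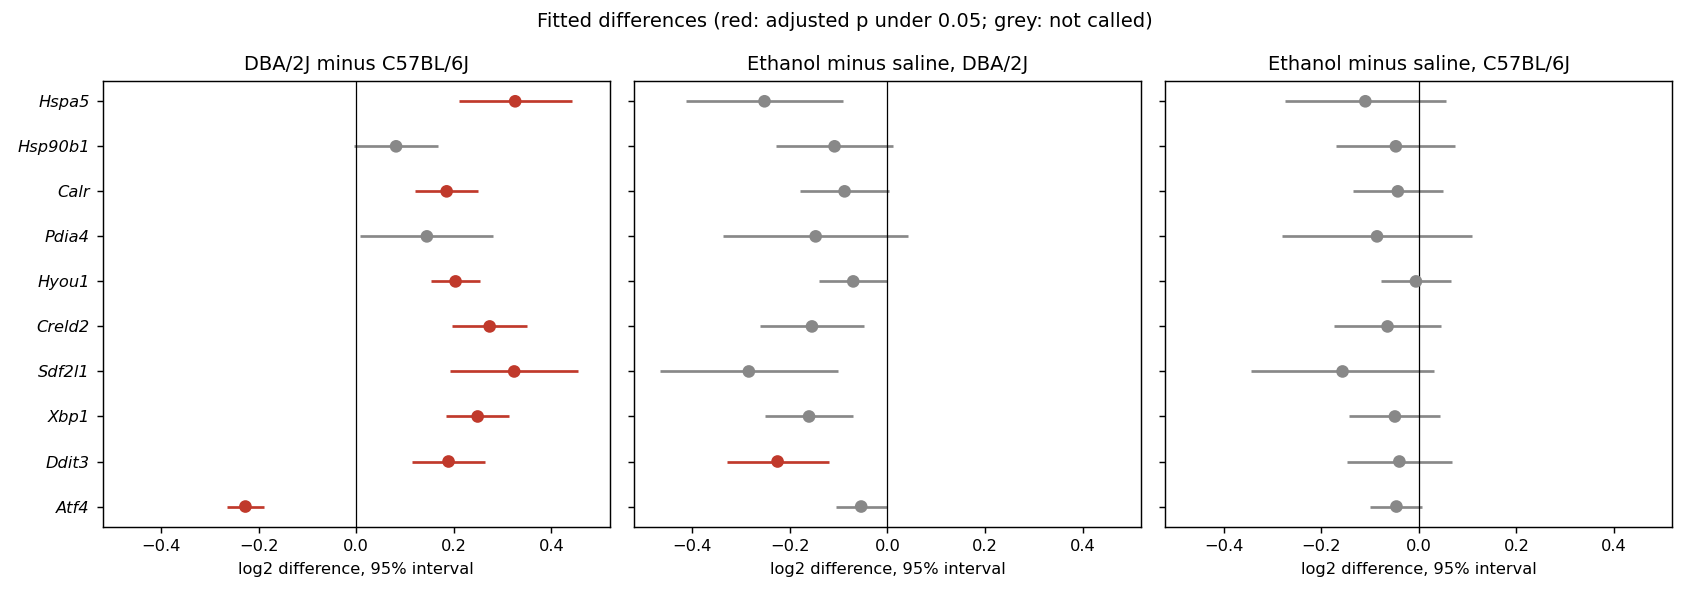
Fitted log2 differences of the 10 genes with 95% intervals for DBA/2J minus C57BL/6J and for ethanol minus saline in each strain, red where the adjusted p was under 0.05. Strain gives 8 called genes, with Atf4 at -0.23 on the other side of 0 from the rest, and ethanol gives 1, Ddit3 in DBA/2J.

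The wider pathway was counted in 5 lists of other genes. Of 20 targets of Atf4, 14 were lower in DBA/2J, 1 was higher and 18 had a negative difference, with a median of -0.11 on the log2 scale, where 24.4% of all genes were called lower. The lower ones included the serine synthesis enzyme Phgdh (-0.73, adjusted p = 7.5e-31), the proline synthesis enzyme Aldh18a1 (-0.18, adjusted p = 4.5e-10), the mitochondrial folate enzyme Mthfd2 (-0.29, adjusted p = 2.6e-09) and the asparaginyl-tRNA synthetase Nars (-0.13, adjusted p = 7e-08), and the 1 higher gene, named because it was the exception, was Ppp1r15a (0.08, adjusted p = 0.018), the eIF2 phosphatase subunit Gadd34. Ddit3, often counted among Atf4 targets, was higher in DBA/2J as given above. Atf4 targets were called lower in 12 of 20 cases in each round alone, where 17.5% of all genes were called lower in the first round and 17.8% in the second.

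Of 22 other folding genes of the endoplasmic reticulum, 9 were higher in DBA/2J and 3 lower, with a median of 0.04. That count of 12, like those of the 2 lists that follow, is near the 49.9% called over all genes. The oxidoreductase Pdia3, the partner of calreticulin, differed by 0.25 (adjusted p = 6.2e-08), the reductase Dnajc10 by 0.16 (adjusted p = 2.5e-09) and the calcium-binding Rcn1 by 0.30 (adjusted p = 9.9e-06). Ppib, a prolyl isomerase, was lower by far more than any of these (-0.73, adjusted p = 2.5e-39). Of 16 genes of degradation and export from the endoplasmic reticulum, 2 were higher and 6 lower, among them Derl3 (0.36, adjusted p = 0.00011), Edem1 (-0.25, adjusted p = 2.8e-12) and Sel1l (-0.09, adjusted p = 0.00013). Of 9 sensors and their proteases and related kinases, Ern1 was higher (0.11, adjusted p = 0.00093) and Eif2ak1, the heme-regulated eIF2 kinase, Atf6 and Eif2ak3 were lower (-0.21, -0.14 and -0.06). Of 9 cytosolic heat shock genes, Dnajb1 (0.18, adjusted p = 0.00024) and Hspe1 (0.09, adjusted p = 0.0087) were higher and Hspa8 (-0.62, adjusted p = 2.3e-28) was lower.

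**Figure D3:**
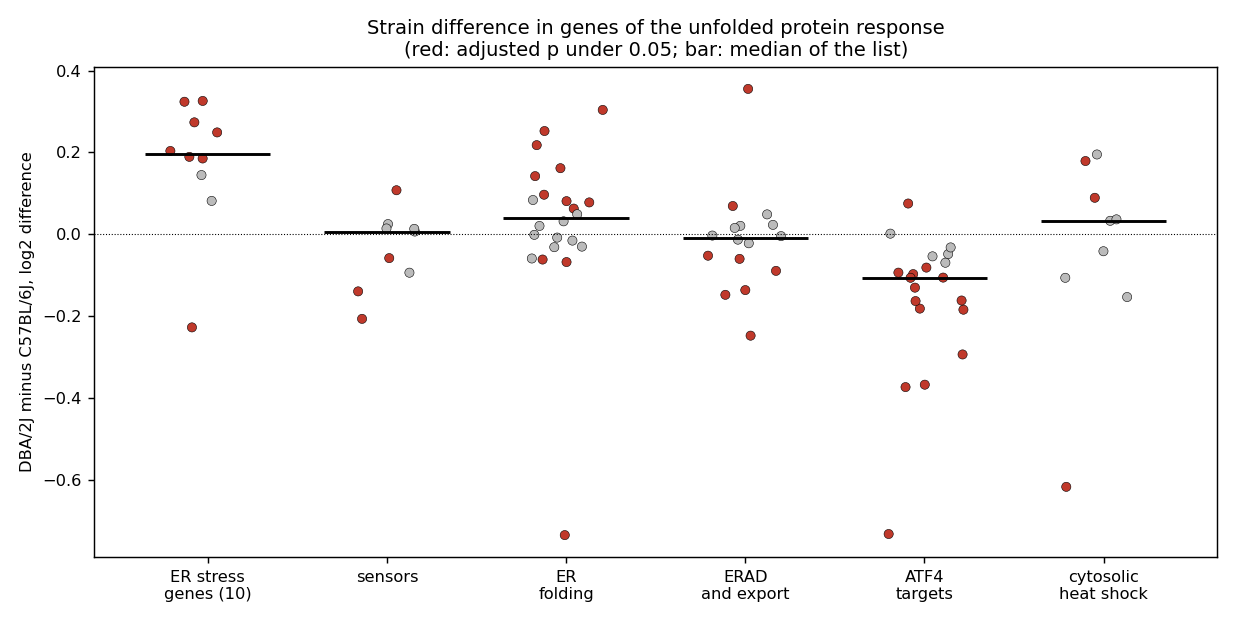
Log2 difference of DBA/2J minus C57BL/6J for each gene of the set and of 5 further lists, red where the adjusted p was under 0.05, with a bar at each list's median. The set's median is 0.20 and that of the Atf4 targets -0.11.

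Markers of other cell types also differed with strain. Oligodendrocyte markers, 10 of 10, were called lower in DBA/2J (median log2 difference -0.41), where they summed to 5191 to 14650 CPM, against 8513 to 18340 CPM in C57BL/6J, and 6 of 8 dentate gyrus markers were lower (median -0.23). None of the 10 choroid plexus markers was called, but all 10 had a positive difference (median 0.40). Of 5 blood markers 3 were higher in DBA/2J and 1 lower (median 0.61). The part of these cell types in the strain differences of the set was not tested. With the mean log2 level of the choroid plexus markers as a covariate the 8 calls stood and Pdia4 was added (0.10, adjusted p = 0.042). In that fit 53% of all genes were called. Without the 3 libraries high in heat shock transcripts 8 genes were called (49.2% of all genes), with Hspa5 at 0.26.

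Ethanol against saline asks whether acute alcohol moved these genes. In DBA/2J mice 1 of the 10 genes was called, where 0.29% of all genes were (58 genes): Ddit3 was lower after ethanol. Its lowest, median and highest values were 11.6, 13.5 and 15.8 CPM in ethanol libraries and 13.3, 15.8 and 18.7 CPM in saline libraries. All 16 ethanol libraries lay below the saline median and 7 below the lowest saline library. The means were 13.6 ± 1.30 CPM with ethanol and 15.9 ± 1.79 CPM with saline (SD, n = 16 each), a log2 difference of -0.23 (SE 0.05, adjusted p = 0.03), and the ethanol mean was the lower one in 4 of 4 pairs of groups with the same sex and conditioning. The call was close to the threshold. Over fits that each left out 1 library the difference stayed between -0.24 and -0.20, with adjusted p from 0.013 to 0.078. Of the 63 such fits 13 lost the call, and all 13 were among the 32 that left out a DBA/2J library. The libraries concerned were, by their place in the group, ethanol libraries 2 and 4 (male, FC), 2 (male, noFC), 3 (female, FC) and 2 and 3 (female, noFC), and saline libraries 3 (male, FC), 1 and 4 (male, noFC), 2 and 3 (female, FC) and 1 and 4 (female, noFC). With no filter on low counts its adjusted p was 0.057.

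The other 9 genes had negative differences in DBA/2J that did not pass. Xbp1 had 57.8, 67.1 and 76.6 CPM with ethanol and 58.1, 72.4 and 94.3 CPM with saline, with 15 of 16 ethanol libraries below the saline median, and a log2 difference of -0.16 (adjusted p = 0.12). Hspa5 had 186, 222 and 289 CPM with ethanol and 208, 253 and 413 CPM with saline (-0.25, adjusted p = 0.23), and Sdf2l1 had 6.39, 8.66 and 11.7 CPM with ethanol and 7.25, 9.47 and 17.4 CPM with saline (-0.28, adjusted p = 0.23). The saline groups of these genes reached further up than the ethanol groups. The lowest values were close for Xbp1. For Hspa5 5 of 16 ethanol libraries lay below the lowest saline library, and for Sdf2l1 2 did. Creld2 (-0.15), Pdia4 (-0.15), Hsp90b1 (-0.11), Calr (-0.09), Hyou1 (-0.07) and Atf4 (-0.05) had adjusted p-values from 0.29 to 0.74. An unadjusted p under 0.05 was reached by 7 of the 10 genes, against 8.31% of all genes.

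In C57BL/6J mice none of the 10 genes was called, where 0.0851% of all genes were, and none had an unadjusted p under 0.05, against 4.18% of all genes. The differences ran from -0.16 (Sdf2l1) to -0.01 (Hyou1). Ddit3 had 11.2, 12.6 and 15.2 CPM with ethanol and 11.2, 13.2 and 14.8 CPM with saline, ranges that covered each other, and a log2 difference of -0.04 (95% interval -0.15 to 0.07). Over both strains none of the 10 genes was called (0.556% of all genes were), 7 had an unadjusted p under 0.05 (8.46% of all genes did), and the smallest adjusted p was 0.1, for Ddit3 (-0.13). The difference of the ethanol effects between strains was called for none of the 10 (0.01% of all genes), and Ddit3 came nearest at -0.19 (SE 0.07, unadjusted p = 0.016, adjusted p = 1), so the call in DBA/2J alone does not show that the strains responded differently. DESeq2 called the same number of genes of the set in each of these comparisons.

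Other genes of the pathway gave few calls with ethanol. None of the sensors, the folding genes or the genes of degradation and export was called in either strain. Of the Atf4 targets, Ddit4 rose in DBA/2J (0.20, adjusted p = 0.024) and Ppp1r15a over both strains (0.12, adjusted p = 0.012). Of the 9 cytosolic heat shock genes 4 fell in DBA/2J: Hspa1a (-1.02, adjusted p = 0.00081), Hspa1b (-0.96, adjusted p = 0.003), Dnajb1 (-0.39, adjusted p = 9.8e-05) and Hsph1 (-0.20, adjusted p = 0.0036). The Hspa1a and Hspa1b sequences are nearly the same, and how reads were split between them is uncertain. The 9 genes summed to 1141 to 1404 CPM in ethanol libraries of DBA/2J and 1274 to 1658 CPM in saline libraries. The 3 saline libraries that stood apart by mean log2 level had sums of 1473, 1642 and 1658 CPM. By its sum the first of these did not stand apart, since another DBA/2J saline library had 1462 CPM. Without those 3 libraries the same 4 genes were called (0.186% of all genes), with Hspa1a at -0.57 (adjusted p = 0.0098), Hspa1b at -0.47 (adjusted p = 0.036), Dnajb1 at -0.27 (adjusted p = 0.00045) and Hsph1 at -0.15 (adjusted p = 0.048).

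The ethanol differences of DBA/2J had mostly opposite signs in the 2 rounds of titles, though those of the first were mostly close to 0 (from -0.16 to 0.19). This was seen after the data were examined, and a fit with a coefficient for each group and round was added. In the first round none of the 10 genes was called (0.0851% of all genes were), 8 of the 10 had a positive difference and the median was 0.03. In the second round 5 of the 10 were called lower with ethanol (0.265% of all genes were called), all 10 were negative and the median was -0.31. With the libraries of the second round fitted alone, Xbp1 was the only one of the 10 called in DBA/2J (-0.34, adjusted p = 0.025, with 0.0911% of all genes called).

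In the second round Xbp1 had 57.8, 60.7 and 68.8 CPM with ethanol, against 67.4, 77.9 and 94.3 CPM with saline (-0.35, adjusted p = 0.00033). In the first round it had 63.8, 70.8 and 76.6 CPM with ethanol, against 58.1, 70.6 and 77.5 CPM with saline (0.02). The groups thus overlapped fully in the first round, whereas in the second 7 of 8 ethanol libraries lay below every saline library. Hspa5 in the second round had 186, 204 and 255 CPM with ethanol, against 237, 278 and 413 CPM with saline (-0.54, adjusted p = 0.0044), and in the first 211, 241 and 289 CPM with ethanol, against 208, 238 and 262 CPM with saline (0.05). Sdf2l1 in the second round had 6.45, 8.29 and 9.57 CPM with ethanol, against 9.33, 11.7 and 17.4 CPM with saline (-0.56, adjusted p = 0.0065). As for Xbp1, 7 of 8 ethanol libraries of the second round lay below every saline library for Hspa5, Sdf2l1 and Pdia4.

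Creld2 (-0.33, adjusted p = 0.008) and Pdia4 (-0.47, adjusted p = 0.043) were the other genes called in the second round. Ddit3 and Atf4 were negative in both rounds. Ddit3 stood at -0.16 in the first (adjusted p = 0.46) and -0.29 in the second (adjusted p = 0.1), without passing in either. Its ethanol libraries lay below the saline median in 7 of 8 cases in the first round and in 8 of 8 in the second. In C57BL/6J 6 of the 10 differences were positive in the first round, with a median of 0.01. All 10 were negative in the second, from -0.30 to -0.01, with a median of -0.13. None was called there in either round (0% of all genes in the first, 0.015% in the second).

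The difference of the ethanol effects between rounds, second minus first, was called for none of the 10 genes over both strains (0% of all genes), although all 10 were negative, 7 had an unadjusted p under 0.05 (9.34% of all genes did) and the adjusted p-values ran from 0.16 to 0.79. Xbp1 came nearest, at -0.26 (95% interval -0.37 to -0.16, unadjusted p = 1.5e-05, adjusted p = 0.16). Within each strain this difference was also negative for all 10 genes and called for none (0% of all genes in each). An unadjusted p under 0.05 was reached by 8 in DBA/2J (10.4% of all genes) and 1 in C57BL/6J (3.42%). The adjusted p-values in DBA/2J ran from 0.22 to 0.82. Since the drug letters were exchanged between rounds, an ethanol effect that differs with the round and a difference between letters A and B and letters C and D cannot be told apart. In the second round Manf (-0.39, adjusted p = 0.0068) and Pdia6 (-0.32, adjusted p = 0.043), both lumenal folding factors, were called lower in DBA/2J as well, as were 5 of 9 heat shock genes. Without the 3 libraries high in heat shock transcripts Manf (-0.24, adjusted p = 0.78) and Pdia6 (-0.23, adjusted p = 0.95) were not called there, and of the heat shock genes 1 was, Dnajb1 (-0.38, adjusted p = 0.026).

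**Figure D4:**
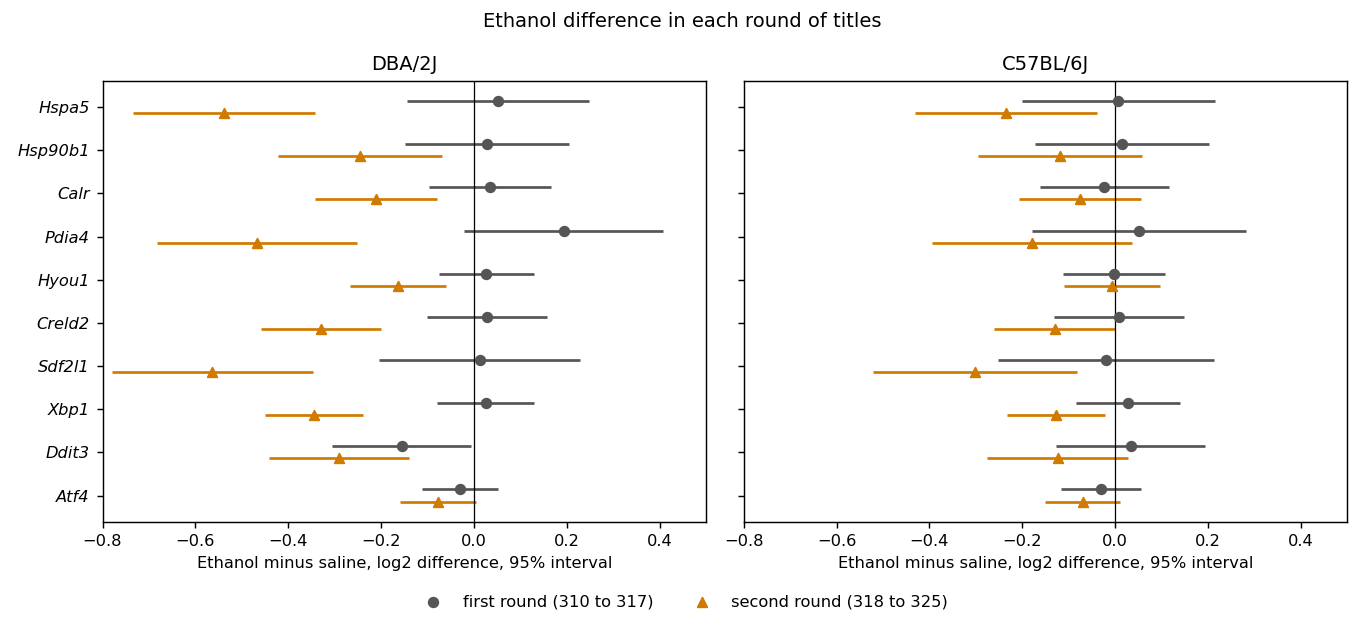
Ethanol minus saline, as log2 differences with 95% intervals, for each gene in the first round of titles (circles) and the second (triangles), in DBA/2J and C57BL/6J. In DBA/2J the first-round values centre on 0.03 and the second-round values on -0.31, and Ddit3 and Atf4 are negative in both.

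The level of choroid plexus markers varied with drug and round in DBA/2J. Their summed median was 1512 CPM in ethanol libraries and 100 CPM in saline libraries of the first round, and 175 CPM in ethanol libraries and 1940 CPM in saline libraries of the second. With the mean log2 level of these markers as a covariate, 6 of the 10 genes were called lower in the second round (median -0.31, with 0.275% of all genes called). In the first round 7 were then negative and 3 positive (median -0.00). Heat shock transcripts were high in 3 saline libraries of DBA/2J in the second round, namely library 3 of the conditioned males, library 3 of the conditioned females and library 4 of the unconditioned females. Those libraries had 397, 322.7 and 413 CPM of Hspa5 and 81.1, 51.6 and 69.3 CPM of Pdia4. Without them none of the 10 genes was called in the second round (0.0201% of all genes), all 10 stayed negative (median -0.19), and Xbp1 had -0.26 (adjusted p = 0.093).

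The Ddit3 call was lost in 13 of the 32 fits that each left out 1 DBA/2J library, and also without those 3 libraries together. All 3 were saline libraries picked by heat shock transcripts, which varied with the chaperone and folding genes of the set (r = 0.71, these 3 libraries included). Without those 3 libraries the ethanol difference of Ddit3 in DBA/2J, over both rounds, was -0.18 (adjusted p = 0.23), no gene of the set was called and the median of the 10 was -0.06. Pdia4 then stood at 0.01.

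Conditioning against no conditioning asks whether fear conditioning moved the set. None of the 10 genes was called, where 0.02% of all genes were. Hspa5 had 194, 243 and 397 CPM in conditioned DBA/2J libraries and 186, 236 and 413 CPM in unconditioned ones. In C57BL/6J it had 166, 192 and 236 CPM with conditioning and 145, 190 and 308 CPM without. The groups covered each other in both strains, and the log2 differences over both strains ran from -0.02 to 0.03, with 95% intervals that stayed between -0.15 and 0.16.

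None of the 10 was called for conditioning in DBA/2J or in C57BL/6J (0% of all genes in each), for the difference of conditioning effects between strains (0%), for the difference of ethanol effects between conditioning states (0%) or between sexes (0%), or for male against female (0.2% of all genes, with differences of the set from -0.04 to 0.03). At an unadjusted p under 0.05 the count of the set was also 0 in each of these comparisons.

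Within groups most genes of the set varied together. Correlations were taken over the 63 libraries on log2 values with each group's mean removed, as a description, since these values share library preparation, depth and tissue makeup. Differences between rounds within a group were left in. The 3 libraries high in heat shock transcripts were included, and no correlation was repeated without them. Their mean deviations for the chaperone and folding genes, in SD units, were 2.55, 2.46 and 1.11. Hspa5, Hsp90b1, Calr, Pdia4, Creld2, Sdf2l1 and Xbp1 had 21 pairwise r values from 0.51 to 0.86, highest for Hspa5 with Pdia4 and for Hsp90b1 with Calr. The 4 genes with an ERSE in the windows printed above are among these 7, as are Pdia4, Sdf2l1 and Xbp1, whose windows held no exact match. Ddit3 followed the 7 less closely (r from 0.23 to 0.51) and Atf4 least (from -0.03 to 0.42), and Atf4 with Ddit3 gave 0.42. Hyou1 gave r from -0.04 to 0.47 with the 7. Within DBA/2J (32 libraries) it gave 0.51 to 0.63 with 6 of them and 0.18 with Hsp90b1, and within C57BL/6J (31 libraries) -0.44 to 0.22 with the 7.

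**Figure D5:**
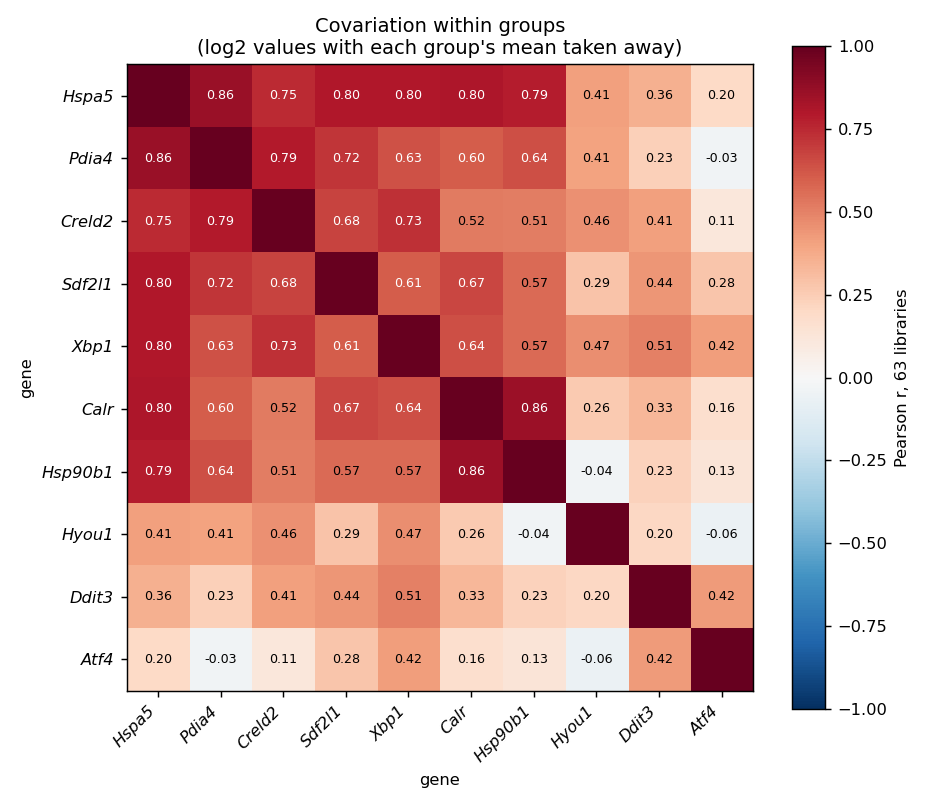
Pearson r between the genes over 63 libraries after removal of group means. The 7 genes at the upper left give r from 0.51 to 0.86 among themselves, and Hyou1, Ddit3 and Atf4 give values of 0.51 or less with them.

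Across all genes tested, the transcripts most like the mean of the 10 genes in this sense were Manf (r = 0.89) and Pdia6 (0.87), both of the endoplasmic reticulum, then the inositol transporter Slc5a3 (0.78), the mitochondrial ribosomal gene Mrps6 (0.76), the cytosolic cochaperone Dnajb1 (0.76), the BiP cochaperone Dnajb11 (0.75), Pdia3 (0.74) and the collagen chaperone Serpinh1 (0.74), where the 99th percentile of all genes was 0.59. Slc5a3 and Mrps6 overlap in the annotation, so their counts may be shared. The mean of the chaperone and folding genes varied with the other folding genes (r = 0.84), with cytosolic heat shock genes (0.71) and with choroid plexus (0.58) and meningeal markers (0.57), and hardly with depth (0.13 with the log2 total count). The spread within groups was smallest for Atf4 (SD 0.07 on the log2 scale) and largest for Pdia4 (0.27), beside a median of 0.11 over 11105 genes.

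How each gene's estimated counts were divided among its transcripts could be tested for the 3 genes that had at least 2 transcripts above 5% of their gene. Hyou1, Calr and Ddit3 were called neither for strain (25.6% of genes were), nor for ethanol (1.89%), nor for conditioning (0.565%), by voom and diffSplice. Of Calr, 20.7 ± 1.84% of the counts in DBA/2J and 21.7 ± 2.44% in C57BL/6J (SD, n = 32 and 31) lay on a transcript with a retained intron, while the coding transcript Calr-201 held 77.8 ± 2.04% in DBA/2J and 76.3 ± 2.47% in C57BL/6J. With transcripts down to 2% included, Hspa5, Hyou1, Hsp90b1, Calr, Xbp1, Atf4 and Ddit3 could be tested. Of these, 2 were called for strain, a share near the 26.9% of all genes tested. A retained-intron transcript took 2.38 ± 0.75% of Hsp90b1 counts in DBA/2J, against 1.85 ± 0.368% in C57BL/6J (adjusted p = 0.024), and 2.22 ± 0.631% of Atf4 counts in DBA/2J, against 1.84 ± 0.5% in C57BL/6J (adjusted p = 0.026). The coding transcript Xbp1-201 held 91.3 ± 1.42% of Xbp1 counts in DBA/2J and 91.8 ± 1.36% in C57BL/6J, and the form spliced by Ire1 was not analysed here.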

How the data were processed

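The authors deposited gene counts for 63 libraries and estimated counts per transcript. Per the labels, libraries were made with TruSeq Stranded mRNA kits and read as single 75 nt reads. The submitters' processing notes list fastp, HISAT2, featureCounts, Salmon and DESeq2 and the build GRCm38. Versions and the strand setting are not given in the sources used here. Ensembl identifiers in the deposited count table were matched to GENCODE M21 (55141 of 55401 rows). Counts were fitted with edgeR 4.0.16 in R 4.3.3: TMM scaling (factors 0.959 to 1.05), filterByExpr with a minimum count of 10 over the 16 groups, 1 coefficient per group, robust quasi-likelihood tests, 2-sided, and Benjamini-Hochberg adjustment over 19974 genes, called at an adjusted p under 0.05. Contrasts averaged groups over the other factors. Deposited estimated counts of transcripts were rounded and tested with limma 3.58.1 (voom, diffSplice). Alternatives were DESeq2 1.42.0, RLE and upper quartile scaling, no filter, a choroid plexus covariate, a replicate block, leaving out each library, each round alone, and the libraries of 1 strain or drug alone. The scripts were tested on simulated data. The members and lists were chosen with earlier results of these data known. All 10 genes were named, and of each other list those called with ethanol and up to 4 per contrast with the smallest p. Genes named beyond this rule were picked with their values in view. The fit by group and round, its repeats and those of the folding and heat shock lists without 3 libraries, and the strain comparison within each round or drug, were added after seeing the data.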

Additional observations from a re-analysis of the deposited data

Results flagged for a closer look

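In each group with 4 libraries, a library was listed here when its gap to the nearest of the others was more than 0.829 of the group's range. Of 150 groups of 4 libraries examined over the 10 genes, 10 met this, where chance gives about 1 in 20 (7.5). The unconditioned DBA/2J female given saline that is library 4 was the highest of its group for Hspa5 at 413 CPM (the other 3 had 225 to 255 CPM), for Pdia4 at 69.3 CPM (38.2 to 42.5 CPM) and for Sdf2l1 at 17.4 CPM (9.06 to 9.61 CPM). Its summed heat shock level of 1658 CPM was the highest of the DBA/2J saline libraries and its choroid plexus markers summed to 5874 CPM (median 175 CPM over DBA/2J libraries), and the part of these in the values was not tested.

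Hyou1 was high at 118 CPM in the conditioned DBA/2J male given saline that is library 3, also among the 3 libraries high in heat shock transcripts (the others 99.98 to 102 CPM) and at 108 CPM in the unconditioned DBA/2J female given ethanol that is library 1 (93.3 to 94.2 CPM). In C57BL/6J, Hspa5 was high at 246 CPM in the unconditioned male given saline that is library 3 (187 to 191 CPM) and low at 145 CPM in the unconditioned female given ethanol that is library 3 (189 to 191 CPM). Calr was low at 281 CPM in the conditioned C57BL/6J female given ethanol that is library 3 (303 to 307 CPM), and Sdf2l1 was low at 6.70 CPM in the conditioned C57BL/6J female given saline that is library 2 (7.44 to 7.60 CPM). Atf4 was high at 107 CPM in the conditioned C57BL/6J male given ethanol that is library 1 (102.9 to 103.1 CPM).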

How the results depend on the processing

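The strain calls kept their direction under every alternative run, and their count ran from 8 to 10 when each library was left out. Under RLE scaling, upper quartile scaling, sums of transcript counts and DESeq2, all 44 results kept direction and call. The ethanol count in DBA/2J, 1 gene in the comparison as reported, was 0 with no filter, 0 without the 3 libraries high in heat shock transcripts, 0 in the first round alone, 0 when the libraries of the strain were fitted alone, and 0 to 2 when each library was left out. In the second round alone the ethanol count over both strains was 2 (Sdf2l1 and Xbp1), and in DBA/2J the 1 call was Xbp1 (-0.34, adjusted p = 0.025) and not Ddit3. In the first round alone, ethanol differences changed sign in DBA/2J for Hspa5 (0.055), Hyou1 (0.030), Hsp90b1 (0.031), Calr (0.038), Pdia4 (0.20), Creld2 (0.032), Sdf2l1 (0.016) and Xbp1 (0.029). They also changed sign there in C57BL/6J for 6 of the 10 genes, among them Hspa5 (0.0086), Xbp1 (0.030) and Ddit3 (0.035), over both strains for 7, among them Hspa5 (0.032) and Xbp1 (0.029), and as a difference between strains for 8, among them Hspa5 (0.046) and Sdf2l1 (0.033). Without the 3 libraries Pdia4 in DBA/2J (0.0072) changed sign, as did the difference between strains for 4 genes, among them Sdf2l1 (0.018). The cause was not tested in any of these. The transcript usage count for strain was 2 with a minimum share of 2%, where 26.9% of all genes tested were called. Over all genes, ethanol in DBA/2J called 58 genes, 111 with the replicate block, 107 by DESeq2, 84 with the choroid plexus covariate, 37 without the 3 libraries, 33 with no filter, 26 with the strain alone, 78 in the first round and 18 in the second. The labels do not say what a title number marks, and each belonged to 1 strain, 1 sex and 1 round. For libraries with the same number, r of their deviations from group means ran from -0.52 to 0.48 over 93 pairs, and for 0 of 16 numbers was every r over 0.1. With the number as a replicate block the count in DBA/2J was 1 again and no call of the 32 results fitted changed; strain and sex could not be fitted with it. Counts as low as 118 for Sdf2l1 and 245 for Ddit3 per library limit precision for those genes.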

Other observations

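The second row with the symbol Ddit3 (ENSMUSG00000116429, chromosome 10, 127290829 to 127293753, 105 bases of exon) lies within the main gene and averaged 2.27 CPM. It was called neither for strain (0.04, adjusted p = 0.67) nor for ethanol in DBA/2J (-0.22, adjusted p = 0.45). Since it overlaps the main gene, how counts were split between the rows is uncertain.

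Genes outside the set whose promoter window held an exact match of the ERSE were counted as well. Of 15 such genes tested, 7 were higher in DBA/2J and 2 lower, where 49.9% of all genes were called (Hnrnpa3 at -0.55 and Tdrd9 at -0.99), with a median log2 difference of 0.06, and none was called for ethanol in either strain. Among the lists the element stood in 3 of 16 folding genes with a promoter entry (Dnajc3, Canx and Pdia6), in 2 of 13 genes of degradation and export (Syvn1 and Derl3), and in 0 of 18 Atf4 targets. Genes were matched by symbol as written. The promoter of Ero1b held the element, but the folding list and the annotation name this gene Ero1lb, so these counts leave it out.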
